A study of Homo sapiens with 4 samples.

Results

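Rab GTPases are small GTP-binding proteins that mark the membranes of the secretory and endocytic routes and recruit the machinery that moves, tethers and fuses vesicles. The array design names 61 genes whose symbol is RAB followed by a number and, at most, a letter from A to D, out of 43317 gene names. They were measured by 80 probes, and where a gene had several, the one with the highest mean log2 signal over the arrays stood for it. No measured difference entered that choice. The 61 names are all current RefSeq symbols. Gene expression was profiled on 1-colour microarrays in HCT116, a colorectal cancer line, and A549, a lung cancer line, in cells given, with Dharmafect1, either the microRNA miR-891b or NC1, a negative control RNA. Each line thus has an NC1 group and a miR-891b group, and each of these 4 groups was 1 array. The labels used here give no dose and no time after transfection, and each line is a single established culture line and not a tissue. The series as a whole is about PSAT1 and vesicle release in cancer.

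A Rab protein cycles between a GDP-bound form, which a GDP dissociation inhibitor holds in the cytosol, and a GTP-bound form that sits in a membrane through its prenyl tail. Guanine nucleotide exchange factors (GEFs) switch it on, GTPase-activating proteins (GAPs) switch it off, and effectors such as tethers and motor adaptors read the active form. In vesicle release, RAB27A and RAB27B are known for docking multivesicular endosomes at the cell surface, RAB35, RAB11A and RAB31 for feeding vesicle release, and RAB7A for sending the same endosomes to the lysosome.

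A microRNA pairs with transcripts mainly through its seed, bases 2 to 8. The mature miR-891b sequence of RefSeq (GRCh38.p14) is shown because it is the transfected agent, with the seed in capitals.
miR-891b: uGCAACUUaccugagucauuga
The 7 bases that pair with this seed, AAGTTGC, were looked for in the probe sequences, which sample only 60 bases of each transcript. They occurred in 229 of 58201 probes (0.393%) and in 1 of the 80 Rab probes (1.25%). That probe measures RAB17 at chr2:238484070-238485905 (hg19), a span of 1836 bases that a 60-base probe can only cover across a splice junction. The 30 bases around its match are given with the match in capitals.
RAB17 probe: ccgacagccagAAGTTGCtgttcatggaaa
A probe without these letters says nothing about the rest of its transcript.

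Values are log2 processed signals minus the array's 75th percentile, so a value of 0 is the signal below which 75% of the gene probes of that array lie. They compare 1 probe between arrays, not different probes with each other. With 1 array per group no difference within a line has a replicate check, and so few arrays limit the precision. Every Rab probe was printed at 1 spot. Other probes, repeated over 5 or more measured spots, had a median SD of the log2 difference of 0.062 in HCT116 and 0.071 in A549, which covers the spots and not the cultures. No gene spot was saturated. The share of all gene probes well above background ran from 44.7% to 50.3% per array, and signals at the 75th percentile from 54.9 to 74.8. Areas of stray signal held 10.5% of the gene spots of HCT116 miR-891b and at most 2.20% of those of any other array. The line labels were checked on markers. On the NC1 arrays AKR1B10, AKR1C1, ALDH3A1, KRT81 and NQO1 were higher in A549 by 2.365 to 12.17, and ALDH1A1 was at least 8349-fold higher. CDX2, EPCAM, CLDN7 and CLDN3 were higher in HCT116, with A549 minus HCT116 differences of -6.75 to -3.13. CDH1 differed by -0.24, LGALS4, listed for HCT116, was at least 18.3-fold higher in A549, and GPA33 gave no signal well above background. AKR1B10 differed by 4.47 between the HCT116 arrays.

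Most Rab genes were expressed in both lines. In HCT116 50 of the 61 (82.0%) were well above background with NC1 and 52 with miR-891b, and in A549 51 and 53 (86.9%). Among all gene names the share was 46.5% to 51.8%. Of the 61, all 4 arrays showed 46 well above background, and none showed 4. Those 4 were RAB3C, a RAB3 form of neurons, RAB33B, RAB39A and RAB41. Both arrays of 1 line and neither of the other gave signal well above background for 8 of 55 members, against 12.7% of the genes seen on both arrays of at least 1 line. RAB7B, RAB19 and RAB25 were seen in HCT116 only (3 members, background 2.9%), and RAB32, RAB33A, RAB34, RAB42 and RAB44 in A549 only (5 members, background 9.85%). Another RAB44 probe was well above background on HCT116 miR-891b alone (0.49), in an area of stray signal where 23.4% of nearby dim spots were. In 5 members (RAB4A, RAB4B, RAB5C, RAB11B and RAB13) the probe spans a splice junction.

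**Figure D1:**
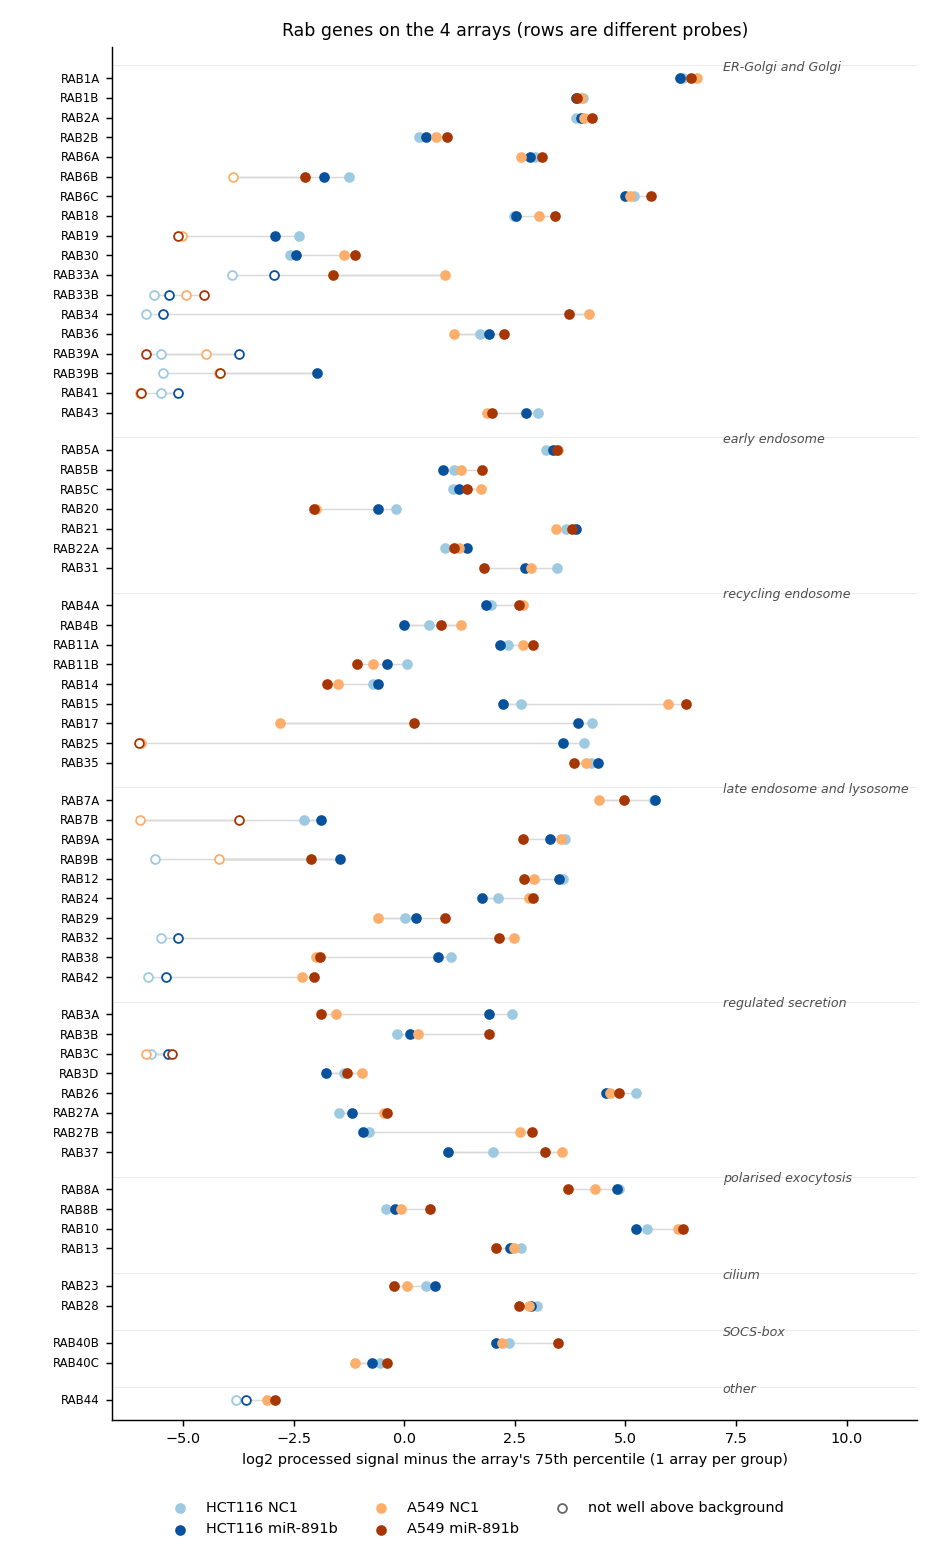
Each row is 1 Rab gene, grouped by role, and each point is its log2 processed signal minus the 75th percentile on 1 array, light and dark blue for HCT116 NC1 and HCT116 miR-891b, orange and brown for A549 NC1 and A549 miR-891b. Open points were not well above background, and rows are different probes that cannot be ranked against each other. RAB25 (4.07 on HCT116 NC1, -5.95 on A549 NC1) and RAB34 (-5.84 and 4.18) lie far apart between the lines.

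The first comparison set the lines against each other. The arrays of each line shared 1 slide and scan, so line and slide cannot be told apart, and in bulk RNA fewer expressing cells cannot be told apart from less RNA per cell. Among the 46 members well above background on both NC1 arrays, 6 were at least 2-fold lower in A549 than in HCT116 and 5 were at least 2-fold higher. The background over all genes was 16.2% lower and 11.1% higher (27.3% in all), so both counts (13.0% and 10.9% of the members) lay near it. On the miR-891b arrays 6 of 48 members were lower and 8 were higher, against 20.7% and 11.4% of all genes.

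An additive limma model over all 4 arrays, with 1 residual degree of freedom, tested the line difference averaged over both treatments. In it miR-891b and NC1 stand in as the replicates of a line. Its p-values thus belong to the fitted difference and not to the NC1 difference given beside it. Of the 46 members well above background on all 4 arrays, 8 passed a Benjamini-Hochberg adjusted p under 0.05, against 25.5% of such genes. Of these 4 were lower (background 15.8%) and 4 higher (background 9.71%) in A549. Of the 56 members that entered the fit, 14 passed, against 31.9% of all genes fitted. The other 6 of the 14 were genes of 1 line only, which entered the fit through the line where they are high.

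Recycling endosome Rabs differed between the lines in both directions. RAB25, an epithelial RAB11 relative of apical recycling (probe at chr1:156038135-156038194, hg19), had a log2 signal of 4.07 on HCT116 NC1, and 3.60 with miR-891b there, and -5.95 and -5.997 on the A549 arrays. It was high on both HCT116 arrays and not well above background on either A549 array, and was at least 260.0-fold higher in HCT116 on the NC1 arrays. For such a bound the dim array is given the smallest signal that any probe had there while well above background. Where the probe's own signal on the dim array was higher than that, as for RAB6B in A549, its own signal was used. RAB17, a Rab of transcytosis in polarised epithelium (chr2:238482973-238483032), had 4.24 and 3.94 on the HCT116 arrays with NC1 and miR-891b, and -2.80 and 0.23 on the A549 arrays. Both HCT116 values lay above both A549 values, and the NC1 arrays differed 132.0-fold. In the additive fit the A549 minus HCT116 difference of RAB17 was -5.38 (SE 0.85, limma adjusted p = 0.016). RAB15, a brake on early endosome traffic that is known from neurons, went the other way, with 2.64 and 2.24 in HCT116 and 5.96 and 6.38 in A549. RAB15 was 9.95-fold higher in A549 on the NC1 arrays, and the fitted difference was 3.73 (SE 0.31, limma adjusted p = 0.0033).

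Of the 8 Rabs of regulated secretion, all 4 arrays showed 7 well above background, and 3 of these (RAB3A, RAB27B and RAB37) passed the additive test between the lines, against 25.5% of such genes. RAB27B, which acts with RAB27A in docking secretory vesicles, had -0.80 with NC1 and -0.93 with miR-891b in HCT116, and 2.61 and 2.88 in A549. It was 10.7-fold higher in A549 on the NC1 arrays, with a fitted difference of 3.61 (SE 0.25, limma adjusted p = 0.0022), and its other probe was well above background on the A549 arrays only. RAB27A had -1.47 and -1.19 in HCT116 and -0.47 and -0.38 in A549. Its NC1 difference was 2.002-fold, and the fitted difference of 0.91 (SE 0.24) had a limma adjusted p of 0.052. RAB37, a Rab of secretory granules, was higher in A549 by 1.55 on the NC1 arrays (fitted 1.87, SE 0.28, limma adjusted p = 0.014). RAB3A, the synaptic vesicle Rab, was higher in HCT116, with 2.45 and 1.91 there and -1.54 and -1.88 in A549, a 15.8-fold difference on the NC1 arrays (fitted -3.89, SE 0.24, limma adjusted p = 0.0017). The fitted differences of RAB3B, RAB3D and RAB26 were 1.14, 0.43 and -0.15, with limma adjusted p of 0.095, 0.22 and 0.74.

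Differences were also seen among Rabs of the Golgi and of lysosome-related organelles. RAB34, a Rab of the Golgi, lysosome positioning and cilium formation (chr17:27042660-27042719), was dim in HCT116 (-5.84 and -5.46, neither well above background) and had 4.18 and 3.73 in A549, at least 212-fold higher with NC1. RAB32, a Rab of lysosome-related organelles (chr6:146875650-146875709), had -5.49 and -5.11 in HCT116 and 2.48 and 2.14 in A549, at least 65.2-fold higher. Its spot lay in an area of stray signal on HCT116 NC1, where it was dim. Its partner in melanosome traffic, RAB38, ran in the opposite direction, with 1.07 and 0.75 in HCT116 and -1.98 and -1.91 in A549. RAB38 was 8.29-fold higher in HCT116 with NC1 (fitted -2.86, SE 0.25, limma adjusted p = 0.0038). RAB33A, a Golgi Rab, was dim in HCT116 (-3.89 and -2.95, neither well above background) and had 0.93 with NC1 in A549, at least 22.3-fold higher. RAB42 had -5.80 and -5.38 in HCT116, not well above background, and -2.30 and -2.03 in A549, at least 2.37-fold higher. RAB44, an unusually long Rab-like protein, had -3.81 and -3.59 in HCT116 and -3.11 and -2.93 in A549, at least 1.36-fold higher.

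In HCT116 alone, RAB7B, a late endosome Rab whose probe is unmapped in the design, had -2.26 and -1.88, against -5.98 and -3.74 in A549, not well above background. The HCT116 signal was at least 3.24-fold higher with NC1. RAB19 had -2.38 and -2.93 in HCT116 and -5.03 and -5.12 in A549, at least 2.99-fold higher in HCT116. RAB20, an endosome and phagosome Rab, was 3.52-fold higher in HCT116 with NC1 (fitted -1.63, SE 0.25, limma adjusted p = 0.015). RAB30, a Golgi Rab, was 2.31-fold higher in A549 (fitted 1.27, SE 0.23, limma adjusted p = 0.024), and its spot lay in an area of stray signal on HCT116 miR-891b. RAB7A, the Rab of late endosome to lysosome traffic, had 5.65 and 5.66 in HCT116 and 4.40 and 4.97 in A549. It was 2.37-fold higher in HCT116 with NC1, with a fitted difference of -0.97 (SE 0.27) at a limma adjusted p of 0.059. RAB43, a Golgi Rab, was 2.24-fold higher in HCT116 with NC1 (fitted -0.96, SE 0.25, limma adjusted p = 0.052).

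**Figure D2:**
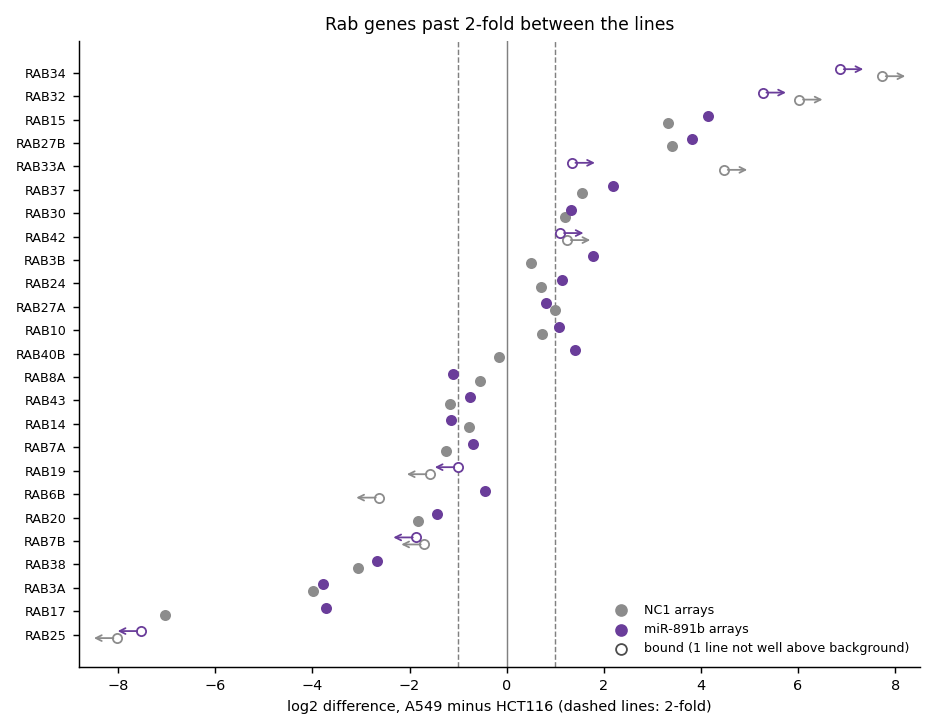
Each row is a Rab gene past 2-fold between the lines on the NC1 or the miR-891b arrays, and the x axis is the log2 difference A549 minus HCT116, in grey for the NC1 arrays and in purple for the miR-891b arrays. Open points with arrows are bounds, where 1 line was not well above background. RAB17 lies at -7.04 on the NC1 arrays and at -3.71 on the miR-891b arrays, and RAB25 was at least 185-fold higher in HCT116 on the latter.

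The upstream sequences of 3 Rabs that were higher in HCT116 are shown, because their promoter windows hold the hexamer CACCTG or its reverse complement CAGGTG close to the start site. This hexamer is an E-box, a site type that repressors of epithelial genes such as SNAI1 and ZEB1 are known to bind. It was picked with the line differences known. The windows are the 250 bases before the RefSeq start site (GRCh38.p14), written in the direction of transcription with both letterings of the hexamer in capitals. RAB17 lies at chr2:237590735-237590984 (minus strand), RAB19 at chr7:140403808-140404057 (plus strand) and RAB25 at chr1:156060910-156061159 (plus strand).
RAB17: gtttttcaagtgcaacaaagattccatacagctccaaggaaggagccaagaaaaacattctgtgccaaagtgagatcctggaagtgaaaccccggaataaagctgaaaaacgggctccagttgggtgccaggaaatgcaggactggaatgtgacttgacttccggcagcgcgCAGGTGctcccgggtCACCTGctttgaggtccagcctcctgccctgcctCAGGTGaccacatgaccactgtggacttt
RAB19: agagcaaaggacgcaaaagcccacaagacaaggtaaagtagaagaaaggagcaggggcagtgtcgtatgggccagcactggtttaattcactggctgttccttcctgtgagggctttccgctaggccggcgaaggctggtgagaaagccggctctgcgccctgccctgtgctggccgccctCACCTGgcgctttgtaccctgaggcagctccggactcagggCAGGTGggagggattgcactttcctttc
RAB25: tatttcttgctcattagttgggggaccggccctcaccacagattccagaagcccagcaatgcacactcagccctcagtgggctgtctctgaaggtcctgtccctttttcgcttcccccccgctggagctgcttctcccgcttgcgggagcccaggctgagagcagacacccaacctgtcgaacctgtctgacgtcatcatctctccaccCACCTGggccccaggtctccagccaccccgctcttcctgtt
Counted from the start site, the hexamers begin at -78, -63 and -29 in RAB17, at -69 and -28 in RAB19 and at -41 in RAB25. Windows were found for 48 of the 61 members, 69 windows in all. Of these 11 (15.9%) held the hexamer, against 17.5% of 35116 windows of all genes, and only those of RAB17 and RAB19 held it at least 2 times, against 2.53% of all windows. RAB7B, also seen in HCT116 only, had none in either of its windows, and RAB3A, RAB7A and RAB43, higher in HCT116, had none. RAB6B also had none in either of its windows. With NC1 it was at least 6.15-fold higher in HCT116, and its A549 signal was not well above background. On the miR-891b arrays the A549 minus HCT116 difference of RAB6B was -0.44. Of the Rabs at least 2-fold higher in A549 with NC1, RAB27A and RAB30 each had 1, in 1 window, beginning at -242 and -231. RAB27B, RAB32, RAB34 and RAB42 had none. The hexamer also occurred in a window of RAB5C (-62), RAB3B (-102), RAB2B (-144), RAB4A (-154), RAB18 (-176) and RAB5B (-228). With NC1 each of these was higher in A549, by less than 2-fold, from 0.15 (RAB5B) to 0.71 (RAB4A). A match is a description of the letters, and no binding was measured. The CG dinucleotide occurred 6 times in the RAB17 window, 10 times in that of RAB19 and 8 times in that of RAB25, against a median of 19 over the Rab windows and 11 over all windows. Windows of Rabs higher in A549 ran as low, with 7 in RAB42, 10, 10 and 16 in RAB34 and 4 and 12 in RAB27B, or far higher, with 36 in RAB32.

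The main comparison asked how the Rab genes differed between miR-891b and NC1 within each line. The median size of change, whatever its sign, was 0.25 over the measured members and 0.20 over all measured genes in HCT116. In A549 these medians were 0.34 and 0.32. Of 50 members measured on both HCT116 arrays, 1 was at least 2-fold lower (background 0.843% of 19104 genes) and 0 were at least 2-fold higher (background 1.16%). The median change was -0.15, with -0.041 over all measured genes, and 32 of the 50 (64.0%) were below 0, against 55.5% of all genes. At 1.5-fold, 3 members were lower (background 5.65%) and 0 were higher (background 3.91%, with 9.56% in either direction). In A549 2 of 51 members were at least 2-fold lower (background 5.57% of 21336 genes) and 5 were at least 2-fold higher (background 4.0%). The A549 median was 0.075, with -0.058 over all genes, and 24 members (47.1%) were below 0, against 55.6%. At 1.5-fold, 4 were lower (background 15.3%) and 7 were higher (background 11.1%, with 26.4% in either direction).

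**Figure D3:**
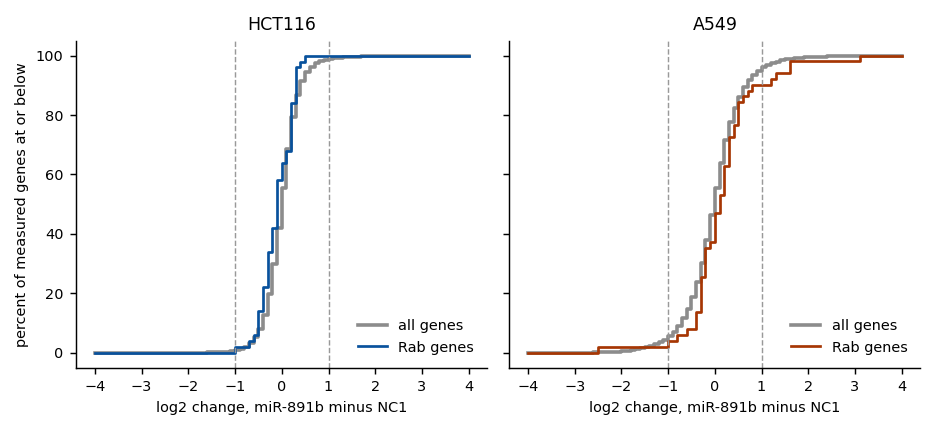
The curves give the percent of measured genes whose log2 change, miR-891b minus NC1, is at or below the value on the x axis, in grey for all genes and in colour for the Rab genes of HCT116 (left) and A549 (right), with dashed lines at 2-fold. The Rab curve of HCT116 stays within the dashed lines but for 1 gene, and that of A549 has 2 genes beyond the lower line and 5 beyond the upper.

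Of the 46 members measured in both lines, 15 were lower and 11 were higher in both, 14 were lower in HCT116 and higher in A549, and 6 were the reverse. Within 1.5-fold in both lines lay 34. RAB31 alone went past 1.5-fold the same way in each line. These counts were made for the members only, so whether they differ from those of other genes was not tested. In the additive limma model, with the lines as the only replication of the transfection, 0 of 56 members and 0 of 22714 genes (0.0%) passed an adjusted p of 0.05, and no gene had one below 0.793. At an unadjusted p under 0.05 there were 2 members, RAB9B and RAB31, against 5.33% of all genes. RAB9B entered the fit only through the miR-891b arrays, where it is high, so its p for this contrast supports nothing.

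**Figure D4:**
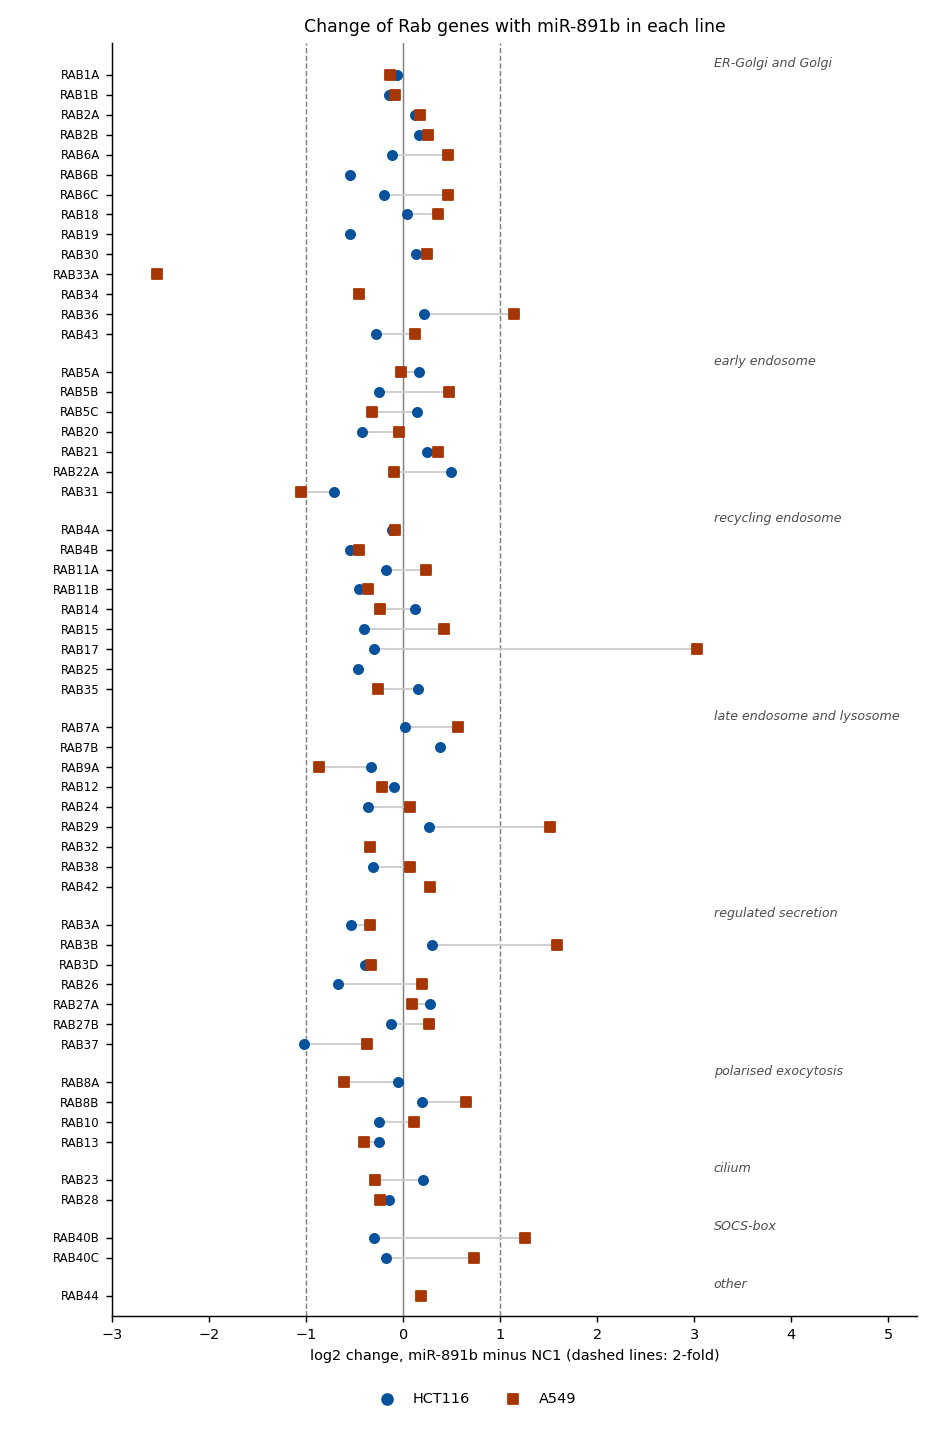
Each row is a Rab gene measured on both arrays of at least 1 line, grouped by role, with its log2 change (miR-891b minus NC1) in HCT116 as a blue circle and in A549 as a brown square, and dashed lines at 2-fold. RAB17 (3.03 in A549, -0.31 in HCT116) and RAB33A (-2.54 in A549) lie farthest out, and RAB31 lies to the left in both lines.

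Among the early endosome Rabs, RAB31, a RAB22A relative that moves cargo between the Golgi and endosomes and is known for driving vesicle formation (chr18:9862231-9862290), was lower with miR-891b in both lines. Its log2 signal was 3.45 with NC1 and 2.74 with miR-891b in HCT116, and 2.86 and 1.80 in A549. The miR-891b value was the lower of the pair in each line, with changes of -0.72 in HCT116 (1.64-fold) and -1.06 in A549 (2.08-fold). The additive estimate was -0.89 (SE 0.25, unadjusted p = 0.021, limma adjusted p = 0.79). Its spot lay in an area of stray signal on A549 miR-891b, where 21.9% of the nearby spots that were dim elsewhere carried the well-above-background mark, and the part of that in the A549 value was not tested. The A549 change ran from -1.12 to -0.995 over the other settings. RAB5A, the Rab of early endosome fusion, had 3.21 and 3.37 in HCT116 and 3.48 and 3.46 in A549, changes of 0.16 and -0.020. RAB22A, the nearest relative of RAB31, changed by 0.50 in HCT116, the highest of the HCT116 members, and by -0.095 in A549. RAB5B changed by -0.25 and 0.47, RAB5C by 0.14 and -0.32, RAB20 by -0.42 and -0.048, and RAB21, which carries integrins, by 0.24 and 0.36, with its spot in an area of stray signal on A549 miR-891b.

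All 9 recycling endosome Rabs were measured in HCT116, where none was past 1.5-fold, 7 were below 0 (55.5% of all genes were) and the median was -0.31. In A549 8 were measured. RAB17 went from -2.80 with NC1 to 0.23 with miR-891b, higher by 3.03 or 8.16-fold, with -0.31 in HCT116. The A549 miR-891b value stayed below both HCT116 values. With normexp background correction and quantile normalization the A549 change was 0.995, just under 2-fold and smaller in size than those of RAB3B (1.24), RAB40B (1.23), RAB33A (-1.18) and RAB31 (-1.12). The other RAB17 probe, which carries the seed match, had -0.053 and -0.42 in HCT116 and was not well above background on either A549 array (-6.19 and -4.10). Markers listed for HCT116 did not all move with it in A549. CLDN3 was higher by 1.03 and EPCAM by 0.74, while CLDN7 changed by -0.96, CDH1 by -0.78 and CDX2 by -0.36. RAB25 remained not well above background on A549 miR-891b. RAB4B, of fast recycling, changed by -0.55 in HCT116 and -0.45 in A549, and RAB11B by -0.45 and -0.36. RAB11A, of slow recycling, had 2.34 and 2.16 in HCT116 and 2.68 and 2.92 in A549, changes of -0.17 and 0.24. RAB35, of fast recycling and vesicle release, had 4.23 and 4.38 in HCT116 and 4.11 and 3.84 in A549, changes of 0.15 and -0.27. RAB15 changed by -0.41 and 0.42, RAB14 by 0.12 and -0.24, and RAB4A by -0.12 and -0.090. RAB25, measured in HCT116 only, changed by -0.47.

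In regulated secretion, RAB37 (chr17:72743222-72743281) was the 1 member past 2-fold in HCT116. It had 2.01 with NC1 and 0.98 with miR-891b there, a change of -1.03 (2.04-fold), and 3.56 and 3.18 in A549, a change of -0.38. Its other probe changed by -0.91 in HCT116 and -0.55 in A549, in the same direction. The HCT116 change of RAB37 lay under 2-fold with normexp and quantile normalization (-0.76), quantile normalization (-0.97), median scaling (-0.99) and the mean over probes (-0.97), and in each of these settings no member was past 2-fold in HCT116. RAB26, of secretory granules, had 5.24 and 4.56 in HCT116, a change of -0.68, and 4.65 and 4.85 in A549, a change of 0.19. RAB3B, a RAB3 form of secretory epithelium (chr1:52385308-52385367), had 0.32 with NC1 and 1.91 with miR-891b in A549, higher by 1.58, and -0.17 and 0.12 in HCT116, a change of 0.30. Its spot lay in an area of stray signal on HCT116 miR-891b, not on an A549 array. The Rabs best known from vesicle docking differed less: RAB27A changed by 0.28 in HCT116 (0.063 with normexp and quantile normalization) and 0.086 in A549, and RAB27B by -0.13 and 0.27. RAB3A changed by -0.54 and -0.35, and RAB3D, of exocrine granules, by -0.40 and -0.34.

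Among Rabs of the late endosome and lysosome, RAB29, which recruits the kinase LRRK2 to membranes (chr1:205739455-205739514), had -0.59 with NC1 and 0.92 with miR-891b in A549, higher by 1.51 (2.85-fold). In HCT116 it had 0.0083 and 0.27, a change of 0.26, and its spot lay in an area of stray signal on HCT116 NC1. With normexp and quantile normalization the A549 change of RAB29 was 0.76. RAB9A, which returns cargo from late endosomes to the Golgi (chrX:13727357-13727416), had 3.55 and 2.68 in A549, a change of -0.87 (1.83-fold lower), and 3.63 and 3.29 in HCT116, a change of -0.33. The miR-891b value was the lower in each line. RAB7A changed by 0.015 in HCT116 and 0.56 in A549, and its other probe by -0.26 and 0.41. RAB24, of autophagy, changed by -0.37 and 0.075, RAB12 by -0.091 and -0.22, and RAB38 by -0.31 and 0.073. RAB32, measured in A549 only, changed by -0.34, and RAB42 by 0.27. RAB7B, measured in HCT116 only, changed by 0.38. RAB9B was well above background on both miR-891b arrays and on neither NC1 array, with -5.62 and -1.45 in HCT116 and -4.19 and -2.12 in A549, so that it was at least 4.28-fold and at least 3.57-fold higher. Its spot lay in an area of stray signal on HCT116 miR-891b (21.4% of nearby dim spots well above background), and its other probe, with -5.36 and -4.99 there, was well above background on A549 miR-891b only.

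The Golgi Rabs were the most numerous role, with 18 members, 12 of them measured in each line. Their medians were -0.093 in HCT116 and 0.21 in A549. RAB33A (chrX:129318758-129318817) had 0.93 with NC1 and -1.61 with miR-891b in A549, a change of -2.54 (5.80-fold lower), and was not measured in HCT116. With normexp and quantile normalization the change of RAB33A was -1.18. RAB36, a Golgi Rab close to RAB34 (chr22:23506428-23506487), had 1.12 and 2.26 in A549, higher by 1.14 (2.20-fold), and 1.70 and 1.91 in HCT116, a change of 0.21. With normexp and quantile normalization its A549 change was 0.90, under 2-fold. RAB34 itself changed by -0.45 in A549, and RAB19 by -0.55 in HCT116. RAB2A and RAB2B, of the Golgi, changed by 0.12 and 0.16 in HCT116 and by 0.18 and 0.25 in A549. RAB18, of the endoplasmic reticulum and lipid droplets, changed by 0.043 and 0.36, RAB30 by 0.13 and 0.25, and RAB43 by -0.28 and 0.12. RAB1A and RAB1B, of traffic from the endoplasmic reticulum to the Golgi, changed by -0.069 and -0.15 in HCT116 and by -0.13 and -0.083 in A549. RAB6A, of retrograde Golgi traffic, changed by -0.12 and 0.46, and RAB6C by -0.20 and 0.46. RAB6C is a retrotransposed copy of RAB6A, so the signals of this pair may be shared. RAB6B had -1.26 and -1.81 in HCT116, a change of -0.55, and -3.88 (not well above background) and -2.24 in A549, at least 3.11-fold higher. Its spot lay in an area of stray signal on A549 miR-891b (11.475% of nearby dim spots). RAB39B was well above background on HCT116 miR-891b alone, at least 2.97-fold higher than with NC1, in an area where 10.0% of nearby dim spots were.

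Rabs of polarised exocytosis went both ways in A549. RAB8A had 4.32 and 3.71 there, a change of -0.61, and RAB8B had -0.072 and 0.58, a change of 0.65. In HCT116 they changed by -0.053 and 0.19. RAB10, of insulin-stimulated glucose transporter traffic, changed by -0.25 in HCT116 and 0.11 in A549, and RAB13, of tight junction traffic, by -0.25 and -0.41. The SOCS-box Rabs, which act in ubiquitin ligases, were both higher in A549. RAB40B (chr17:80615516-80615575) had 2.22 and 3.48, higher by 1.26 (2.39-fold), and RAB40C had -1.12 and -0.39, higher by 0.73. In HCT116 they changed by -0.31 and -0.18. With normexp and quantile normalization the A549 changes of RAB40C and RAB8B were smaller, 0.32 and 0.395. RAB44, placed in none of these roles, changed by 0.18 in A549. The cilium Rabs RAB23 and RAB28 changed by -0.29 and -0.24 in A549 and by 0.20 and -0.15 in HCT116.

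Several members had more than 1 probe. For some, among them RAB7A, RAB18 and RAB28, a further probe was designed to another transcript record, so the RNA read may differ. In HCT116 10 members had at least 2 measured probes, of which 5 had the same sign on all and 5 (RAB1A, RAB2B, RAB7A, RAB12 and RAB28) did not. In A549 8 of 10 agreed in sign, with RAB2B and RAB28 the exceptions. The median range between probes of a gene was 0.16 in HCT116 and 0.19 in A549, and the largest was 0.46 and 0.68.

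The proteins that act on Rabs were described over a list of 102 genes, of which 101 were on the array under that name. In HCT116 93 of them were measured, with 0 at least 2-fold lower or higher (background 2.0%) and a median of 0.012. In A549 95 were measured, with 2 lower and 5 higher (7.37%, background 9.57%) and a median of 0.14.

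Among the genes of this list reported here, the 7 changes past 2-fold were in A549. CHML, a Rab escort protein that presents new Rabs for prenylation, changed by -1.32 (1.78 to 0.46) and by -0.040 in HCT116. The escort protein CHM changed by 0.24 in A549 and 0.13 in HCT116, and RABGGTB, a subunit of the prenylating enzyme, by -0.96 and -0.24. Of the GEFs, DENND2C was higher by 2.30 (-2.98 to -0.67), and RAB3IL1, which acts on RAB8, by 1.32. The 2 other DENND2C probes were not well above background on any array. The A549 NC1 value of DENND2C was low, like that of RAB17 (-2.80). The A549 change of RAB17 fell from 3.03 to 0.995 with normexp and quantile normalization. Changes of the listed genes were not followed over the alternative settings. Of the GAPs, TBC1D16 was higher by 1.12 and TBC1D2, which acts on RAB7, changed by -1.04. Of the effectors, the dynein adaptor BICD1, which binds RAB6, was higher by 1.56 and RAB11FIP4, which binds RAB11, by 1.03. None of these genes was past 2-fold in HCT116, where they ran from -0.56 (RAB11FIP4) to 0.15 (TBC1D16). The spots of RAB3IL1 and RAB11FIP4 lay in areas of stray signal on HCT116 arrays.

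**Figure D5:**
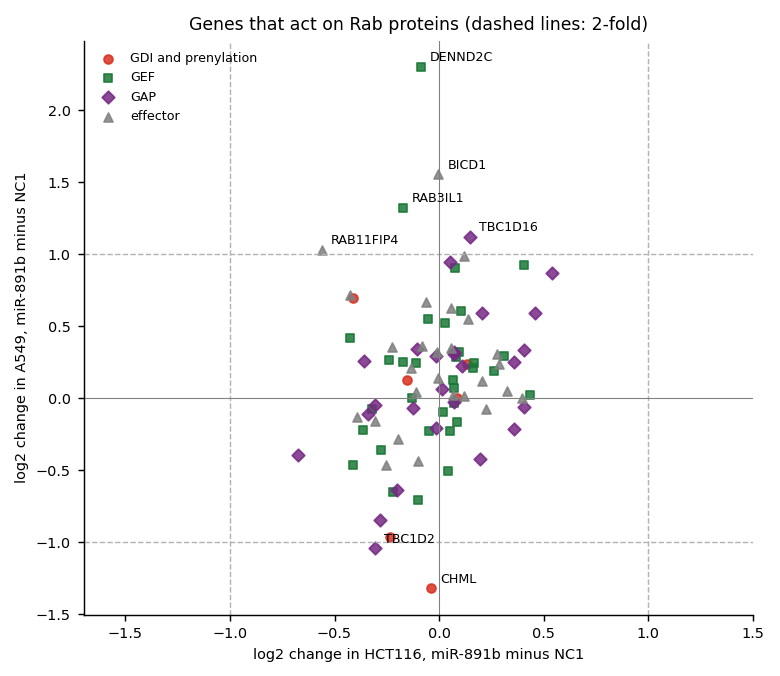
Each point is a listed gene that acts on Rab proteins, with its log2 change (miR-891b minus NC1) in HCT116 on the x axis and in A549 on the y axis, coloured by class, with dashed lines at 2-fold and names for genes past 2-fold in a line. The named genes lie past the dashed lines of the A549 axis only, from CHML at -1.32 to DENND2C at 2.30.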

How the data were processed

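Total RNA (100 ng) was labelled with Cy3 and hybridised to Agilent 1-colour arrays, per the labels. The deposited scanner files hold intensity values that Feature Extraction 11.5.1.1 had background-subtracted and detrended within each array, with no scaling between arrays, and hg19 probe coordinates, per the file headers. The deposited table of the authors' processed log2 values, whose making is not given in the sources used here, differed from the main setting by a median of at most 0.0076 per array. Its column medians lay between -3.8 and -3.6, and it was used as an alternative.

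Outlier-marked spots were dropped, log2 processed signal was averaged per probe, and the 75th percentile over gene probes was subtracted. A gene was measured in a comparison where its probe carried the well-above-background mark on both arrays. Changes were called by size, at 2-fold. The additive model (limma 3.58.1, R 4.3.3) took genes marked on at least 2 of 4 arrays, with terms for line and treatment and Benjamini-Hochberg adjustment over all genes. It was tested on simulated data in which miR-891b changed genes by the same amount in both lines. That test does not cover changes that differ between the lines. P-values measure only the spread between these arrays. A spot lay in an area of stray signal where, among its neighbours within 10 rows and columns, at least 10% of those dim elsewhere carried the well-above-background mark. Other values came from Python 3.11.15.

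The members, the roles and the lists were chosen with earlier results of these data known. Any member could be named, with values on every array for those past 1.5-fold with miR-891b in a line, those seen in 1 line only, and RAB27A, RAB27B, RAB31, RAB35, RAB11A, RAB7A and RAB5A. Listed regulators past 2-fold were named, with CHM and RABGGTB added after their values were seen. A further gene of that list is not reported here and was left out of its counts, medians and plot. Alternatives were normexp correction (offset 50) followed by quantile normalization, quantile normalization alone, scaling to the median, the mean over probes, the authors' values, no filter on dim probes, leaving out stray areas, and thresholds of 1.5-fold and 3-fold. Promoter windows and the miR-891b sequence are from RefSeq (GRCh38.p14).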

Additional observations from a re-analysis of the deposited data

Results flagged for a closer look

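The change with miR-891b had opposite signs in the lines for several results, each with 1 array per group, so that no test of the difference was possible and it was not tested. The A549 change exceeded the HCT116 change by 3.33 for RAB17 (3.03 against -0.31), by 1.56 for RAB40B (1.26 against -0.31), by 0.91 for RAB40C (0.73 against -0.18) and by 0.87 for RAB26 (0.19 against -0.68). The median over the measured Rab genes was 0.075 in A549 and -0.15 in HCT116, a difference of 0.22.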

How the results depend on the processing

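No paired analysis was possible because each group holds 1 array and no replicate numbers pair them, and the additive fit already holds the line as a term. In HCT116 the count of members past 2-fold was 0 with normexp and quantile normalization, quantile normalization, median scaling, the mean over probes and a 3-fold threshold, 3 at 1.5-fold, and 4 (1 lower, 3 higher) with no filter on dim probes. Over all genes the share past 2-fold moved from 2.0% to 0.204% with normexp and quantile normalization and to 9.76% with no filter. At 1.5-fold the share was 9.56%, and at 3-fold it was not worked out. The HCT116 median moved to -0.064 with normexp and quantile normalization and to -0.0685 with no filter. In A549 the count of 7 became 4 (2 lower, 2 higher) with normexp and quantile normalization, 4 (1 lower, 3 higher) without stray areas, 6 (1 lower, 5 higher) with median scaling, 11 with no filter, 11 at 1.5-fold and 2 at 3-fold. The share over all genes was 9.57%, and 3.59% with normexp and quantile normalization, 9.56% without stray areas, 9.52% with median scaling and 13.9% with no filter. At 1.5-fold the A549 share was 26.4%, and at 3-fold it was not worked out. Leaving out stray areas removed RAB31, RAB3B and RAB29, of which RAB31 was disturbed on an A549 array and the others on HCT116 arrays only. The A549 median moved to 0.15 with quantile normalization. Between the NC1 arrays the count of 11 became 6 with normexp and quantile normalization, 22 with no filter, 22 at 1.5-fold and 6 at 3-fold. For these alternatives the share over all genes was not worked out. The additive fit called 0 members for miR-891b in each setting run. Between the lines it called 14 to 17, against 21.5% (no filter) to 33.3% (without stray areas) of all genes. The members called were 7 lower and 7 higher in the main setting, and 6 and 10 after normexp and quantile normalization. They were 7 and 10 with median scaling, and 10 and 6 without stray areas. Of 37 gene changes followed, the 8 past 2-fold kept their direction in every alternative that gave a value. The alternatives reprocess the same 4 arrays, so this is no replicate check.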

Other observations

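Genes with related names that the pattern leaves out were measured on all 4 arrays. Of the Rab-like genes, RABL3 changed by 0.62 in HCT116 and 0.16 in A549, RABL2A by 0.16 and 0.11, and RABL6 by 0.056 and 0.0078. RAB40AL changed by -0.26 in HCT116 and 0.63 in A549. The pseudogene RAB9BP1 changed by -0.30 and -0.90, and its spot lay in an area of stray signal on A549 miR-891b. The antisense gene RAB6C-AS1 was higher in A549 (0.42 and 0.89) than in HCT116 (-2.17 and -1.85), while RAB6C itself had 5.11 and 5.58 in A549 and 5.199 and 5.001 in HCT116.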
